A study of Mus musculus with 7 samples.

Results

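Id proteins and E proteins were followed as a group of 7 mouse genes: Id1, Id2, Id3 and Id4, and the E protein genes Tcf3, Tcf4 and Tcf12. The members were all array probes whose RefSeq accession maps to one of these genes, which gave 10 of the 39429 probes left after controls, with 1 probe for each Id gene and 2 for each E protein gene. The cells were cultured group 2 innate lymphoid cells (ILC2s), lymphocytes of type 2 immunity that carry no antigen receptor. They came from Gfi1+/+ mice (wild type, 4 arrays, each a pool of 3 mice) or from Gfi1GFP/GFP mice (knockout, 3 arrays, each a pool of 6 mice), in which a GFP cassette inserted at the Gfi1 locus reports its promoter and ends the function of this transcriptional repressor. Mice of either genotype received IL-25 on 4 days, and on day 5 cells that were Lin-, Sca-1+, ICOS+, CD127+ and c-Kit+ were taken from mesenteric lymph nodes. They then grew for 6 days with IL-2 (50 ng/ml), IL-7 (10 ng/ml) and IL-25 (50 ng/ml), so that all groups share this cytokine exposure.

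E proteins are basic helix-loop-helix transcription factors that bind DNA as dimers at E-box sequences and drive gene programmes of B and T lymphocytes. Id proteins carry the helix-loop-helix part but no DNA-binding basic region, so that they pair with E proteins and keep them off DNA. Id2 is the Id protein on which innate lymphoid cells depend for their development, Id3 is best known from T and B lymphocytes, and Id1 and Id3 are classic early response genes of bone morphogenetic protein (BMP) signalling.

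Each array held an ILC2 sample in the red channel and a universal mouse reference RNA in the green channel. Values are log2 ratios of sample over reference unless a channel is named, errors are SD over arrays, and a difference is always knockout minus wild type. On an array, 67.4% to 80.9% of probes gave a sample signal well above background, and precision is limited by there being 7 arrays. The single Gfi1 probe read 4.28 ± 0.02 (n = 3) on the knockout arrays and 2.02 ± 0.23 (n = 4) on the wild-type arrays. Since the targeted allele keeps an active promoter and the place of the probe in the transcript is not known here, this value checks no label. Over all 25346 genes tested with limma, 7.52% passed an adjusted p of 0.05, 3.28% higher and 4.24% lower in the knockout. The higher share of the calls was 43.6%, and 55.5% with median centring in place of loess. Slide 1 held knockout array 1 with wild-type array 4, slide 2 held knockout arrays 2 and 3 with wild-type array 1, and slide 3 held wild-type arrays 2 and 3 alone.

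Id3 and Id1 rose in Gfi1 knockout ILC2s, by 2.70-fold and 2.23-fold. Id2, the Id gene of the innate lymphoid lineage, was not called, with a difference of 0.03. Id4 gave no sample signal well above background on any array, and none of the 3 E protein genes was called. Of the 7 members, 6 passed the filter on dim probes, and 2 of these 6 were called, against the background of 7.52% given above. The groups did not overlap in the same 2 genes, where 18.3% of all tested genes showed no overlap.

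**Figure D1:**
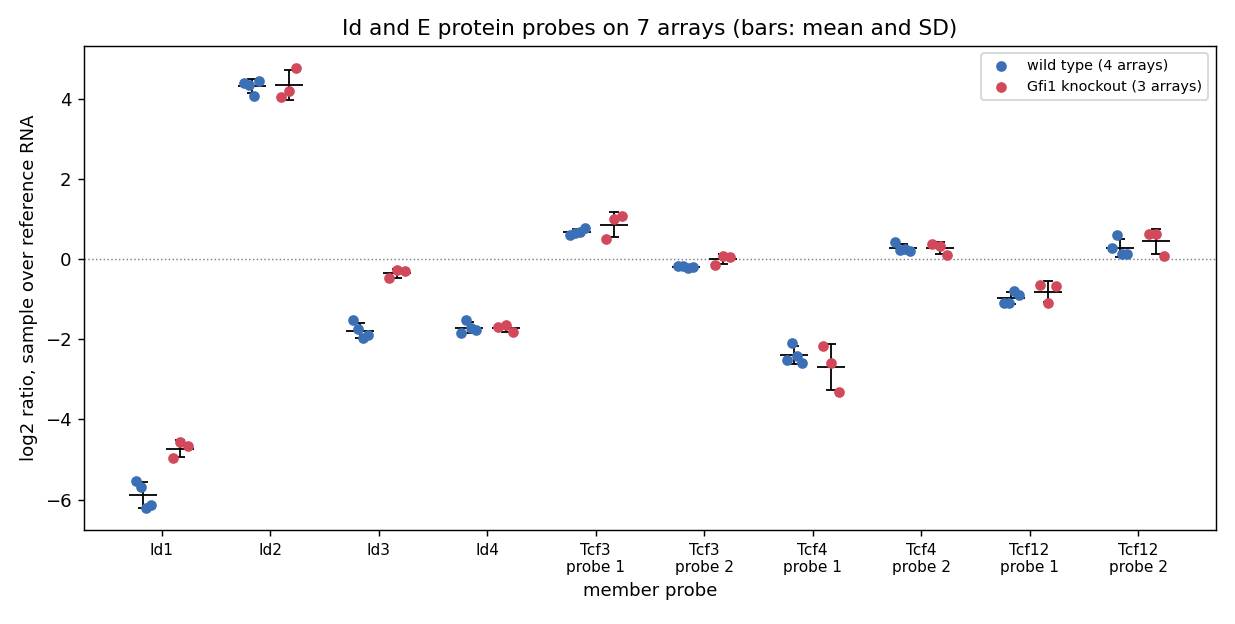
The plot of member probes by array gives the log2 ratio of sample over reference for each of the 10 probes, wild type in blue (4 arrays) and knockout in red (3 arrays), with the mean and SD as black bars. The red points of Id1 and Id3 lie above all blue points, while the 2 colours overlap for Id2, Id4, Tcf4 and Tcf12 and for the brighter Tcf3 probe.

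The Id3 log2 ratio was -1.52, -1.74, -1.97 and -1.88 on wild-type arrays 1 to 4, and -0.47, -0.27 and -0.30 on knockout arrays 1 to 3. All knockout arrays were above all wild-type arrays, and both groups stayed below the reference RNA. The mean was -1.78 ± 0.20 (n = 4) in the wild type and -0.35 ± 0.11 (n = 3) in the knockout, a difference of 1.43 ± 0.12 (SE) with a 95% interval of 1.17 to 1.69 (limma adjusted p = 0.000159). This was the 71st smallest p of the 25346 genes. In the sample channel alone Id3 moved from 10.54 ± 0.09 to 12.01 ± 0.09, while the reference signal differed by 0.04. Within slide 1 the Id3 difference was 1.41, and within slide 2 it was 1.24.

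Id1 followed the same order of groups from a much lower ratio. Its log2 ratio was -5.54, -5.67, -6.20 and -6.12 on wild-type arrays 1 to 4, and -4.96, -4.56 and -4.66 on knockout arrays 1 to 3. The groups did not overlap, and the sample stayed far below the reference RNA on every array. By the group means it was 59.1-fold below in the wild type and 26.5-fold in the knockout. The scanner software's ratio gave means of -6.33 and -4.76, so the wild-type fold depends on the scaling. The mean was -5.89 ± 0.33 (n = 4) against -4.73 ± 0.21 (n = 3), a difference of 1.16 ± 0.17 (SE) with a 95% interval of 0.77 to 1.55 (limma adjusted p = 0.00416). The Id1 sample signal was dim but well above background on all 7 arrays: the median pixel signal was 117 to 288 on wild-type arrays and 503 to 786.5 on knockout arrays, against 4130.5 to 7043.5 in the reference channel. With the scanner software's own ratio, to which no offset is added, the Id1 difference was 1.56 and that of Id3 was 1.42, so the order of these 2 rises turned with the scaling. The differences within slides 1 and 2 were 1.16 and 0.94.

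Id2 gave the highest ratio of sample over reference among the member probes. Its log2 ratio was 4.40, 4.36, 4.07 and 4.45 on wild-type arrays 1 to 4, and 4.05, 4.21 and 4.78 on knockout arrays 1 to 3. The knockout arrays included the lowest and the highest value, so that the groups overlapped fully. The mean was 4.32 ± 0.17 (n = 4) in the wild type and 4.35 ± 0.38 (n = 3) in the knockout, 19.9-fold and 20.3-fold over the reference RNA. The difference of 0.03 ± 0.17 (SE) had a 95% interval of -0.35 to 0.41 (limma adjusted p = 0.956), and this interval ends below those of Id1 and Id3. In the sample channel Id2 stood at 16.58 ± 0.22 in the wild type and 16.53 ± 0.26 in the knockout, and no array was flagged as saturated. The Id2 signal of the common reference varied more than that of the sample, from 11.46 on knockout array 3 to 12.81 on wild-type array 3, a range of 1.35 against 0.64 in the sample channel. The median reference range over all tested genes was 0.25, and 99.4% of tested genes had a smaller one than Id2. Within slide 1 the Id2 difference was -0.39, and within slide 2 it was 0.10.

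Id4 has its main known roles in the nervous system and in germ cells. None of the 7 arrays gave an Id4 sample signal well above background, although the reference channel did so on all 7. The median pixel signal of the sample ran from 32 to 44.5 on wild-type arrays and from 42 to 47 on knockout arrays, against 122.5 to 140.5 in the reference. No fold is given, since the sample value is only a bound in both groups.

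**Figure D2:**
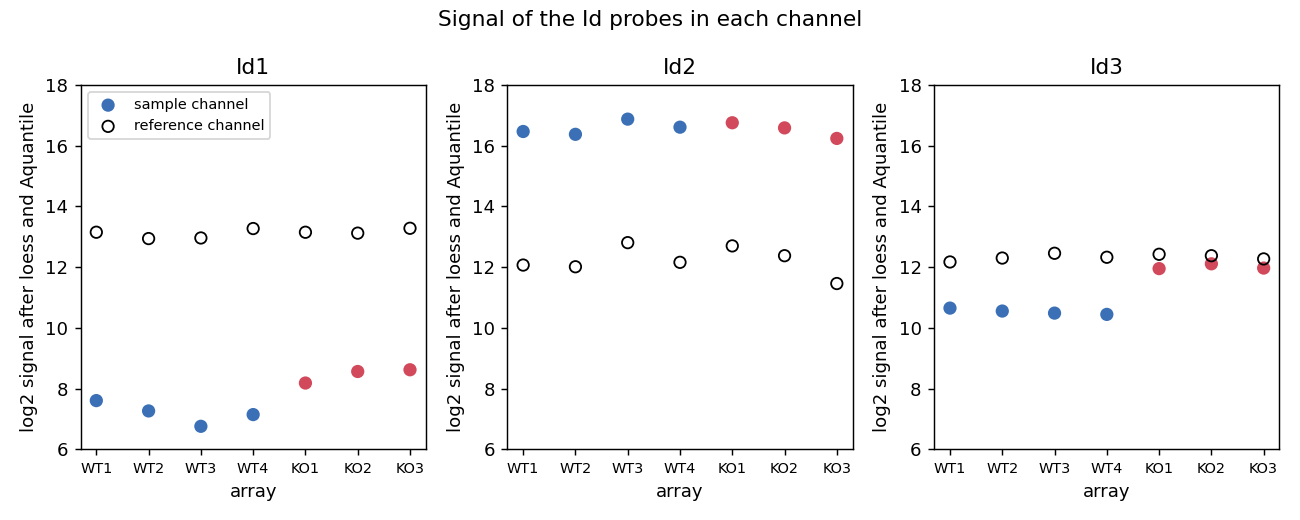
The channel plot shows the log2 signal after loess and Aquantile for Id1, Id2 and Id3 on each array, with filled points for the sample (wild type blue, knockout red) and open points for the reference RNA. For Id1 and Id3 the filled points step up at the knockout arrays while the open points stay level; for Id2 the filled points stay between 16.24 and 16.87 and the open points vary from 11.46 to 12.81.

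The promoters of Id3, which rose, and Id2, which was not called, are shown to set a changed member beside one with no detected change. Each window runs from 250 bases before to 50 bases after the transcription start, 5′ to 3′, from RefSeq on GRCm38.p6. Capitals mark matches on either strand to the E-box CANNTG, to AATC, the core letters of the Gfi1 site, or to GGCGCC, a GC element of BMP-responsive promoters. The Id3 window is chr4:136143572-136143871 on the plus strand and the Id2 window is chr12:25096043-25096342 on the minus strand.
Id3: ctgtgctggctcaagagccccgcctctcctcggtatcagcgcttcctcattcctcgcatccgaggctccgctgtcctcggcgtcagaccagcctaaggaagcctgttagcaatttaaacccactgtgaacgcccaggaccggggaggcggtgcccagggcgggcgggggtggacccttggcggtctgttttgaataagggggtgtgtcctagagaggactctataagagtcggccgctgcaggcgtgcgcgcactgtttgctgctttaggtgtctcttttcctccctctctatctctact
Id2: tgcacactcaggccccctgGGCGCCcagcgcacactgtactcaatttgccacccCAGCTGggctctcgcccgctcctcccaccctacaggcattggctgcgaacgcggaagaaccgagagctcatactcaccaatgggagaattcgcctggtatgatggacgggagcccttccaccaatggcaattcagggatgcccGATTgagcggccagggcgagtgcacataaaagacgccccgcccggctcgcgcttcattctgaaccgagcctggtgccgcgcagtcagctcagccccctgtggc

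The Id3 window held none of the 3 letter patterns. The Id2 window held 1 match to each: an E-box, CAGCTG, starting at -196, the reverse complement of AATC starting at -53, and GGCGCC starting at -231. Of all 32851 windows of this length, 72.3% held an E-box, 73.1% held AATC on either strand and 11.9% held GGCGCC. A match is a description of these letters only, and the 3 patterns did not overlap each other in the Id2 window. Windows were read for 5 members, and none was read for Id1 or for the E protein gene Tcf4. Tcf3 and the 3 windows of Tcf12 each held at least 1 E-box, and the Id4 window held none.

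No E protein gene was called on its brighter probe, and none of the dimmer probes was called either. Tcf3, which encodes the E12 and E47 proteins, had a log2 ratio of 0.61, 0.64, 0.69 and 0.77 on wild-type arrays 1 to 4, and of 0.50, 1.01 and 1.07 on knockout arrays 1 to 3. Knockout array 1 was the lowest of all 7 and the other knockout arrays the highest. The wild-type mean of 0.68 ± 0.07 (n = 4) and the knockout mean of 0.86 ± 0.31 (n = 3) differed by 0.18 ± 0.13 (SE), with a 95% interval of -0.12 to 0.48 (limma adjusted p = 0.539). Without knockout array 1 the difference was 0.36 and passed the threshold (limma adjusted p = 0.0466). Slide 1, where that array lies, gave -0.27 and slide 2 gave 0.43. The dimmer Tcf3 probe read -0.19 ± 0.03 (n = 4) and 0.00 ± 0.12 (n = 3), without overlap of the groups, and its difference of 0.20 was not called over probes (limma adjusted p = 0.221; 7.47% of 30292 tested probes were called).

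Tcf12, which encodes the E protein HEB of developing T cells, had a log2 ratio on its brighter probe of -1.10, -1.09, -0.80 and -0.89 on wild-type arrays 1 to 4, and of -0.65, -1.10 and -0.66 on knockout arrays 1 to 3. The groups overlapped through knockout array 2. The difference was 0.17 ± 0.13 (SE), with a 95% interval of -0.13 to 0.46 (limma adjusted p = 0.576). The dimmer Tcf12 probe gave 0.16 (limma adjusted p over probes 0.69). The 2 probes lay on opposite sides of the reference RNA, at -0.97 ± 0.15 and 0.29 ± 0.23 in the wild type (n = 4), although they carry the same accession.

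Tcf4, which encodes E2-2, the E protein of plasmacytoid dendritic cells, was the member with the widest spread in the knockout. Its brighter probe had a log2 ratio of -2.51, -2.08, -2.41 and -2.60 on wild-type arrays 1 to 4, and of -2.17, -2.59 and -3.31 on knockout arrays 1 to 3. Knockout array 3 was the lowest of all 7, and knockout array 1 was above 3 of the 4 wild-type arrays. The means of -2.40 ± 0.23 (n = 4) and -2.69 ± 0.58 (n = 3) differed by -0.29 ± 0.24 (SE), with a 95% interval of -0.82 to 0.24 (limma adjusted p = 0.59). Without knockout array 3 the difference was 0.02, and it was 0.43 within slide 1 and -0.44 within slide 2. The dimmer Tcf4 probe differed by -0.01 (limma adjusted p over probes 0.977) and stood at 0.28 ± 0.10 in the wild type (n = 4), on the other side of the reference RNA from the brighter probe. With the scanner's own ratio the wild-type means of these Tcf4 probes were -2.32 and 0.92, so that their opposite signs did not depend on the offset. The dimmer probe was weak in both channels, with median pixel signals of 135 to 213 in the sample and 63.5 to 89.5 in the reference. Its side of the reference is therefore less sure.

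**Figure D3:**
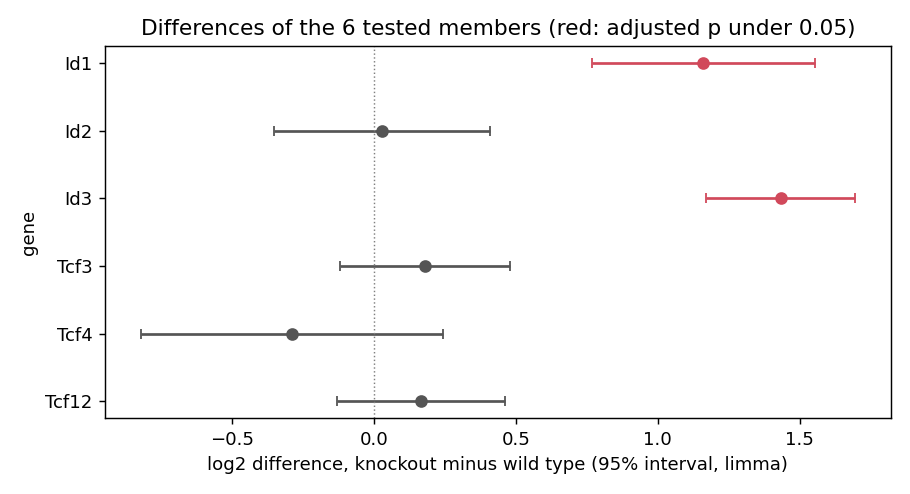
The interval plot gives the log2 difference, knockout minus wild type, of the 6 tested members with its 95% interval from limma, in red where the adjusted p was under 0.05. The intervals of Id1 (0.77 to 1.55) and Id3 (1.17 to 1.69) lie above 0, and those of Id2, Tcf3, Tcf4 and Tcf12 span it, with upper ends at or below 0.48.

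The intervals on the fold scale come from the main fit, without slide, and do not cover every other setting. Within slide 1, with 1 array of each group, the Tcf4 difference of 0.43 lay above its upper end of 0.24 on the log2 scale. There the Id2 difference of -0.39 lay below its lower end of -0.35, and the Tcf3 difference of -0.27 below its lower end of -0.12. With the scanner's ratio the Id1 difference of 1.56 lay just above its upper end of 1.55. For Tcf3 the interval ran from 0.92-fold to 1.40-fold of the wild-type level, for Tcf12 from 0.91-fold to 1.38-fold and for Tcf4 from 0.57-fold to 1.18-fold. The Id2 interval ran from 0.78-fold to 1.33-fold, and those of Id1 and Id3 from 1.70-fold to 2.93-fold and from 2.25-fold to 3.24-fold.

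The rises of Id1 and Id3 kept their call under all 24 other settings with a test. Over these, the Id3 difference ran from 1.31 to 1.56 (limma adjusted p from 9.12e-05 to 0.00715) and the Id1 difference from 0.98 to 1.56 (limma adjusted p from 0.00198 to 0.0345). With slide as a fixed block, under which the calls over all genes fell from 1905 to 478, both were still called (limma adjusted p = 0.00385 for Id3 and 0.0345 for Id1). The Id2 difference ran from -0.19 to 0.21 and changed sign under 5 of the settings, and it was called under none of the 24.

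**Figure D4:**
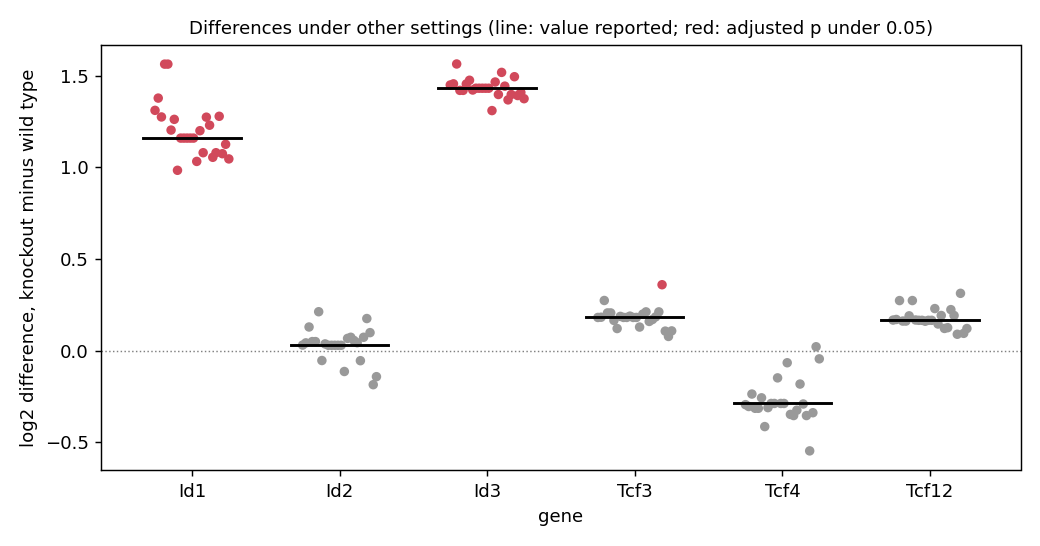
The plot of other settings gives, for each tested member, the log2 difference under each of the 24 alternatives with a test (points, red where the adjusted p was under 0.05) and the value reported here (line). All points of Id1 and Id3 are red and at or above 0.98; the single red point elsewhere is Tcf3 without knockout array 1, at 0.36.

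Genes that act around the Id and E proteins were read from lists of known roles. Counts in these lists and in the marker lists below stand beside 3.28% called higher and 4.24% called lower over all 25346 tested genes. With slide as a fixed block, 478 of all tested genes were called. BMP ligands and receptors, which act upstream of Id1 and Id3, changed in both directions. Of 15 tested genes among BMP ligands, receptors, SMADs and Egr factors, 3 rose and 2 fell; the median difference was -0.08, against -0.01 over all tested genes. Acvrl1, the type I receptor ALK1, had a log2 ratio of 0.52, 0.64, 0.56 and 0.65 on wild-type arrays 1 to 4, and of 1.98, 1.87 and 2.12 on knockout arrays 1 to 3. Its difference was 1.40 ± 0.09 (SE), a 2.64-fold rise (limma adjusted p = 3.58e-05), and the slide block kept the call (adjusted p = 0.0032). Bmpr2, the type II receptor of BMPs, fell by 0.68 on the log2 scale (adjusted p = 0.00107), with values of 0.07 to 0.27 on wild-type arrays and -0.57 to -0.48 on knockout arrays. The ligand gene Bmp2 rose by 0.81 on the log2 scale (adjusted p = 0.0181), and by 2.26 with the scanner's ratio (adjusted p = 0.0167). The type I receptor gene Acvr1 rose 1.32-fold (adjusted p = 0.0299), and the ligand gene Bmp7 fell 2.54-fold (adjusted p = 0.0223). The slide block ended the last 3 calls, at adjusted p = 0.0787, 0.287 and 0.179. Their log2 differences under that block were 0.95, 0.38 and -1.43, against 0.81, 0.40 and -1.35 in the main fit. The Bmp2 call was also lost in the sample channel alone (adjusted p = 0.0796), and those of Bmp7 and Acvr1 with the scanner's ratio (adjusted p = 0.0566 and 0.0718). Leaving out 1 array ended each of these 3 calls in 4 of 7 fits, with an adjusted p of at most 0.108. The second Acvr1 probe differed by 0.08. Bmpr1b and Smad9 were not well above background on any array.

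Among the genes that E proteins work with, 1 partner gene rose and no cofactor gene was called. Of 9 tested cofactors and corepressors, none was called, and the median difference was 0.02. The smallest p among them belonged to Lmo2, a bridging factor of E protein complexes, at 0.17 (adjusted p = 0.542), followed by the acetyltransferase genes Kat2a at 0.17 and Crebbp at -0.12 and by Runx1t1, a corepressor gene, at -0.11. Of 10 tested class II helix-loop-helix partners, 1 rose. This was Msc, which encodes musculin, a partner that represses transcription: its log2 ratio was 0.37 to 0.51 on wild-type arrays and 1.33, 1.35 and 0.72 on knockout arrays 1 to 3, a difference of 0.67 (limma adjusted p = 0.0234) that was 2.18 with the scanner's ratio (adjusted p = 0.0335). Among wild-type arrays 2 of 4 gave an Msc signal well above background. The slide block ended the Msc call (adjusted p = 0.178), and leaving out 1 array ended the call in 5 of 7 fits, with an adjusted p of at most 0.088. Tal1, a partner of E proteins in blood progenitors, differed by -0.29 (adjusted p = 0.0859; 0.0397 in the sample channel alone), Ascl2 by 0.25 and Bhlha15 by -0.46.

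Genes described as E protein targets in developing lymphocytes moved in both directions. Of 17 tested, 1 rose and 2 fell, and the median difference was -0.01. This count takes the brightest probe of each gene. For Cdkn1a that probe differed by 0.35 and was not called (limma adjusted p = 0.306). The second Cdkn1a probe differed by 0.945 and was called over probes (limma adjusted p = 0.000686). Hes1, a repressor that Notch signalling also drives, had a log2 ratio of -1.85, -1.85, -1.71 and -1.70 on wild-type arrays 1 to 4, and of -2.87, -3.02 and -2.91 on knockout arrays 1 to 3. The groups did not overlap, and Hes1 fell by 1.15 on the log2 scale (limma adjusted p = 8.32e-05; 0.00464 with slide as a block). With the scanner's ratio the Hes1 difference was -2.12 (adjusted p = 0.00195). Socs3, a feedback inhibitor of cytokine signalling, fell 1.64-fold (adjusted p = 0.0184; 0.182 with slide as a block), and 1 of 7 fits without an array ended the call, with adjusted p = 0.0548, as did the scanner's ratio (adjusted p = 0.0508). Foxo1 differed by 0.33 and was not called (adjusted p = 0.0609). Ptcra, Notch1 and Igll1 were not well above background on any array.

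Factors that act beside Id2 in early innate lymphoid development moved in both directions. Of 9 tested, 1 rose and 2 fell, and the median difference was 0.12. Zbtb16, which encodes PLZF of innate lymphoid precursors, rose 1.36-fold (adjusted p = 0.04996), from values of -0.55 to -0.31 on wild-type arrays to -0.15 to 0.26 on knockout arrays. Runx3 fell 1.32-fold (adjusted p = 0.0179), with a second probe at -0.17 that was not called. Gata3, the factor that ILC2s need, fell by 0.93 on the log2 scale (limma adjusted p = 0.0101). The slide block ended all 3 calls, at adjusted p of 0.374, 0.182 and 0.138, with log2 differences of 0.42, -0.36 and -0.85. Leaving out 1 array ended the Zbtb16 call in 6 of 7 fits and the Runx3 call in 3 of 7, with an adjusted p of at most 0.126 and 0.0516. Without wild-type array 4 and knockout array 3, Gata3 alone of the 3 was called (adjusted p = 0.0245). With the scanner's ratio Runx3 and Zbtb16 were not called (adjusted p = 0.0707 and 0.11), nor in the sample channel alone (0.0549 and 0.138). Gata3 was called in both (limma adjusted p = 0.0371 and 0.014) and in every fit without 1 array (at most 0.0349). The replicate block ended the Gata3 call (adjusted p = 0.0792). Rora differed by -0.25 (adjusted p = 0.129). The HMG-box genes Tcf7l1, Tcf7l2 and Lef1, the first pair of which older texts call Tcf3 and Tcf4, are no E proteins, and none of them was called, at -0.43, -0.10 and 0.02, although Tcf7l1 passed the threshold in the sample channel alone (adjusted p = 0.0366).

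**Figure D5:**
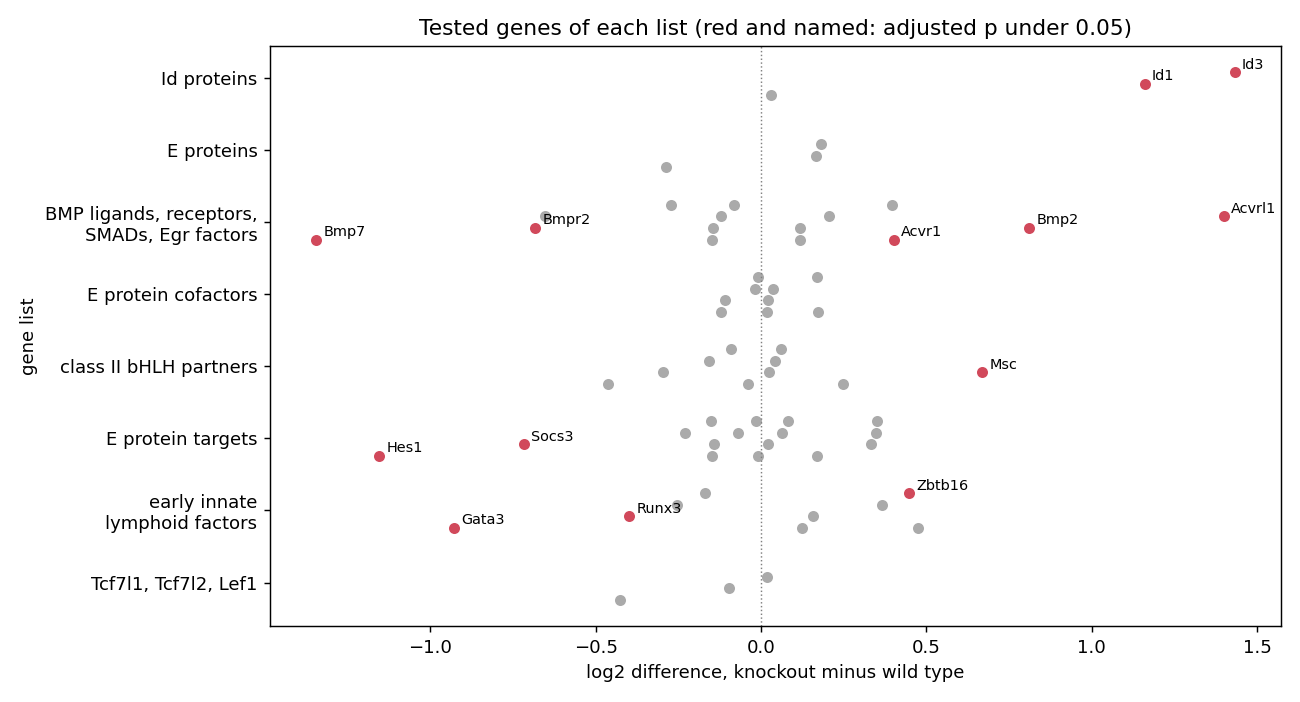
The list plot places the tested genes of the 8 lists, with 1 gene left out, at its log2 difference, knockout minus wild type, with called genes in red and named; the vertical position within a list only separates the points. Id3, Id1 and Acvrl1 lie above 1, and Hes1 and Bmp7 lie below -1.

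Markers of the labelled cell type were present, but passing the filter does not set this type apart. All 10 B cell and all 10 T cell markers passed it too, and some ILC2 markers, such as Icos, encode proteins used to sort the cells. All 13 ILC2 markers on the array passed the filter. Of these, 1 rose and 4 fell (1 and 2 with slide as a block). The list did not move in 1 direction only: 2 of the 13 differences were positive, and the marker that rose kept its call under the block. The summed linear sample signal of the 13 markers ran from 757400 to 1027000 on wild-type arrays and from 501200 to 633400 on knockout arrays. This sum takes the sample channel alone. In that channel Icos differed by -0.68 and Il5 by -0.79, but their reference signals differed by -0.57 and -0.47. The log2 ratios of Icos and Il5 differed by -0.11 and -0.33 and were not called. Il1rl1 went the other way, at -1.39 in the sample channel and -1.89 in the ratio, which was called. Markers of other cells moved with the rises of Id1 and Id3 in part. Of 6 tested ILC3 markers 4 rose, and their summed signal ran from 972.4 to 1156 on wild-type arrays and from 19460 to 29540 on knockout arrays, led by Il17a and Il17f, the 2 that were still called with slide as a block. Id1 and Id3 are also expressed in stromal and endothelial cells. Of 6 tested stromal markers 1 rose, Pdgfrb (3.42-fold), and the collagen genes Col1a1, Col1a2 and Col3a1 differed by -0.23, -0.04 and 0.03; the summed signal was 2536 to 3152 in the wild type and 3214 to 3611 in the knockout. Of 5 tested endothelial markers none was called, and Tek was not well above background on any array. The part of ILC3 and stromal transcripts in the rises of Id1 and Id3 was not tested, and in a bulk sample fewer cells of a type and less RNA per cell cannot be told apart.

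E proteins are high in B cells, T cells and plasmacytoid dendritic cells, and no marker of the first 2 was called. All 10 B cell markers passed the filter, with summed signals of 16930 to 20620 in the wild type and 14550 to 17820 in the knockout. All 10 T cell markers passed it too, at 11440 to 20100 and 11970 to 20510. Of 9 plasmacytoid dendritic cell markers 2 fell, Irf8 and Cox6a2, with summed signals of 55490 to 64400 in the wild type and 53490 to 55650 in the knockout. The same 2 calls were lost with slide as a block, at adjusted p = 0.115 for Irf8 and 0.203 for Cox6a2. Of 6 tested NK cell markers and 6 tested macrophage and monocyte markers none was called, and of 5 tested mast cell and basophil markers 2 fell, Hdc and Cpa3. The slide block ended both of these calls. Without wild-type array 4 and knockout array 3, 1 T cell marker and 2 NK cell markers rose, and no marker of plasmacytoid dendritic cells, mast cells or basophils was called.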

How the data were processed

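RNA of 7 ILC2 samples was hybridised to 2-colour Agilent mouse arrays, with Cy5 (red) for the sample and Cy3 (green) for the reference on every array, per the labels. The deposited files give intensity values per spot, written by Agilent Feature Extraction 11.0.1.1 per the file headers (10.7.3.1 per the submitters' processing notes). Per the file headers, the deposited log10 ratio of red over green was made by the scanner software after background subtraction and dye normalization. The authors' value table for the series gives log2 ratios, which matched the scanner's ratios to within 0.001; their column medians ran from 0.163 to 0.254. Scale and direction are thus known and no centring was found.

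Median signals were corrected with normexp (offset 50) and loess in limma 3.58.1 (R 4.3.3). Spots with feature outliers or non-uniform local background were left out before that step (2597 over all arrays, none of them a member's value). The sample channel alone was read after Aquantile. Accessions were named through RefSeq (GRCm38.p6): 26581 probes had 1 symbol and 12848 had none. Probes well above background on at least 3 arrays, with at least 2 values a group, were tested, and the brightest stood for its gene. lmFit and eBayes compared the groups over 25346 genes, Benjamini-Hochberg adjusted, threshold 0.05. Folds were taken from the log2 difference, and intervals are 95% intervals from that fit. The offset draws dim probes towards 0. The fit was tested on simulated data with 200 genes changed by 1 on the log2 scale: 89% of these were recovered, with 14 false calls. Figures were drawn with matplotlib 3.10.9.

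Members and lists were chosen with earlier results of these data known, so that counts over a list are descriptions. Named genes were the members, Gfi1, up to 4 genes of smallest p in each list, any list gene called and at least 2-fold different and, for each member, the 2 genes with a symbol of highest correlation over the arrays. Acvr1, Cdkn1a, the genes at background and the marker genes were named after their values were seen. Of the genes this rule names, 2 are not reported here; list counts include them. No dye swap was made, so a dye effect and a difference from the reference cannot be told apart, but it drops out between groups. Per the labels, every sample is a separate pool of mice. Slide and scan are the same batch.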

Additional observations from a re-analysis of the deposited data

How the results depend on the processing

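Over all genes 1905 were called. Slide as a fixed block gave 478, the replicate block 1081, and leaving out wild-type array 4 with knockout array 3 gave 1137. Leaving out 1 array gave 1262 to 1897 calls, lowest without knockout array 2 (1262) and without wild-type array 4 (1268). The 2 member calls, Id1 and Id3, were made under each of the 24 settings, and Tcf3 joined them without knockout array 1. The Id2 difference of 0.03 was -0.054 in the sample channel alone, -0.11 with slide as a block, -0.055 without wild-type array 3, -0.19 without knockout array 3 (the lowest of the fits without 1 array; 0.18 without knockout array 1 was the highest), -0.14 with knockout array 3 and wild-type array 4 both left out, and -0.39 within slide 1. The Tcf4 difference was 0.021 without knockout array 3, -0.55 without knockout array 1 and 0.43 within slide 1, and that of Tcf3 was -0.27 within slide 1. The cause of these changes was not tested.

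Same-numbered arrays were not taken as pairs: their deviations from the group means correlated at 0.0363, 0.24 and 0.0208, and 3 of 6 arrays correlated best with their own number. With the replicate block the differences were 1.40 for Id3 (adjusted p = 0.00715) and 1.08 for Id1 (adjusted p = 0.0328), and the block changed no member's call. Signal over background limits Id4, which could not be tested.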

Other observations

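The genes whose log2 ratio ran most like that of a member over the 7 arrays are given as a description. Each Pearson r is the highest of many and the points share the group difference. For Id3 these were Mphosph8, a chromatin-silencing factor (r = 0.999, difference 0.73), and Sae1, a subunit of the SUMO-activating enzyme (r = 0.994, difference 0.59). For Id1 they were Nat10, an RNA acetyltransferase (r = 0.995, difference 0.54), and Tlnrd1 (r = 0.994, difference 0.66). These 4 genes passed the limma threshold (adjusted p from 0.000743 to 0.0189). Id1 and Id3 correlated with each other at r = 0.976 over the 7 arrays, which hold 2 groups that do not overlap for either gene.

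For Id2, Tcf4 and Tcf12, which were not called, the genes most alike were Lrrc59 and Olfr969 for Id2 (r = 0.978 and 0.976), Slc16a1 and Bpnt2 for Tcf4 (0.980 and 0.978), and Cdk13 and Gad1 for Tcf12 (0.983 and 0.980). None of these 6 was called. The log2 ratios of Tcf3 and the brighter Tcf4 probe ran against each other over the arrays, at r = -0.817. Those of Id2 and the brighter Tcf4 probe did so too, at r = -0.771. The Id2 signal, however, varied more in the reference channel (range 1.35) than in the sample channel (0.64). In the sample channel knockout array 3 was the lowest of all arrays for both genes, at 16.24 for Id2 and 8.91 for Tcf4. In Tcf3 and Tcf4 the spread among knockout arrays (SD 0.31 and 0.58) exceeded that among wild-type arrays (0.07 and 0.23).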
